A study of Mus musculus with 12 samples.

Results

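Mitosis and spindle genes were followed in RNAseq of mouse brainstem progenitor neurospheres that carried a wild-type or an R206H mutant *ACVR1*, each alone or beside H3.1K27M. The set comprised 46 of the 54532 genes in the count tables, chosen by name as regulators of the passage from G2 into mitosis, mitotic kinesins, kinetochore and condensin genes and their partners. Each name matched 1 row, and all 46 genes passed the filter on low counts in every comparison, with the lowest total over the 12 samples being 5646 counts for *Cdc25c*. By role, 8 genes serve entry into mitosis, 10 the spindle and its motors, 11 the kinetochore and its checkpoint, 4 the chromosomal passenger complex, 6 chromosome structure, 4 anaphase and mitotic exit, and 3 cytokinesis.

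A cell enters mitosis when cyclin-dependent kinase 1, bound to a cyclin, is switched on. Chromosomes then condense, kinetochores attach to a spindle built by microtubule motors, and a checkpoint holds the cell until every kinetochore is attached. Most of these genes are transcribed only in the late phases of a cycle, under the DREAM and MYBL2-MuvB complexes and FOXM1, so that their transcripts are scarce in resting cells and are widely used as a readout of dividing cells. In the postnatal brainstem, dividing cells are mainly progenitors of glia.

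All 12 cultures came from C57BL/6 pups with the genotype Nestin TVA and floxed p53, at postnatal days 3 to 5 by the labels and day 3 by the methods. TVA, the receptor that lets RCAS viruses enter a cell, is driven by the nestin promoter, so that only nestin-expressing cells could be infected. The viruses brought human *ACVR1* WT in 1 group and human *ACVR1* R206H in another, and H3.1K27M was added to each of these receptors in the remaining 2 groups, with 3 samples in each of the 4. ACVR1 is a type I receptor for bone morphogenetic proteins, and R206H and H3.1K27M are mutations found together in diffuse intrinsic pontine glioma. No group was without an *ACVR1* virus and none carried H3.1K27M alone. No Cre is named for these cultures, so that p53 was floxed in every group with no stated deletion. The labels do not tie replicates to litters. In the paper, sample sizes in figure legends count lines from independent litters, but the RNAseq panels carry no sample size. The p-values measure the spread between these samples, which may be technical.

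Samples held 19315020 to 26456257 counts. Reads assigned to mouse *Acvr1* averaged 50.9 ± 3.91 CPM (the count of a gene scaled to the size of its library, SD, n = 3) with *ACVR1* WT, 93.8 ± 17.3 with R206H, 232 ± 115 with WT and H3.1K27M and 872 ± 271 with R206H and H3.1K27M. Reads of the mouse gene and of the human vector were not separated. *Id1*, a target of the receptor, was at 11.9 to 21.9 CPM with *ACVR1* WT and 32.3 to 40.3 with *ACVR1* R206H, and at 12.4 to 13.8 and 96.3 to 117.6 CPM in the corresponding groups with H3.1K27M. The progenitor markers *Nes* (73.0 to 407 CPM) and *Sox2* (210 to 377) were detected in all samples, and so were the glial markers *Olig2* (470 to 933) and *Gfap* (264 to 2674), whereas the red cell markers *Hba-a1* and *Hbb-bs* were at 0 in all 12. Of the 4 endothelial markers, *Cldn5* was at 0.0374 CPM or less, *Cdh5* at 0 to 0.897, *Pecam1* at 0.0517 to 0.427 and *Kdr* at 0.856 to 3.63, the last being highest in the 3 samples with both mutations. The 3 *ACVR1* WT samples stood apart from each other: the biological coefficient of variation across genes was 0.275 within this group and 0.045 to 0.059 within the other 3. For each comparison that uses this group, the calls of the members are therefore given with all samples and with each of its 3 replicates left out in turn.

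Promoters of many members hold short elements that the choice of genes did not use, and those of 4 members with such elements are shown as examples. They run from 150 bases before to 30 bases after the RefSeq start (GRCm38.p6), 5′ to 3′ on the gene's strand, with the cell cycle genes homology region (CHR, TTTGAA or TTTAAA on either strand) and the CCAAT box (CCAAT on either strand) in capitals. The CHR is the element that the DREAM and MYBL2-MuvB complexes bind, and the CCAAT box is bound by NF-Y. The stretches lie at chr10:69352883-69353062 on the minus strand for *Cdk1*, at chr13:100786457-100786636 on the minus strand for *Ccnb1*, at chr7:122159285-122159464 on the plus strand for *Plk1* and at chr11:99024160-99024339 on the minus strand for *Top2a*.
Cdk1: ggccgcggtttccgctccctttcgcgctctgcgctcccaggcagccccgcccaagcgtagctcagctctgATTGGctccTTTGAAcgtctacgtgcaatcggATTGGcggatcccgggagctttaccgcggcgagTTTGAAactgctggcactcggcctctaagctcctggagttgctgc
Ccnb1: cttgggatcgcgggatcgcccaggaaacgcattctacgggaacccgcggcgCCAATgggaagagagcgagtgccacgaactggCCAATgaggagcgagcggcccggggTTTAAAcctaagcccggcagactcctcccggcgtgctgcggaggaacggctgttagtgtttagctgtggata
Plk1: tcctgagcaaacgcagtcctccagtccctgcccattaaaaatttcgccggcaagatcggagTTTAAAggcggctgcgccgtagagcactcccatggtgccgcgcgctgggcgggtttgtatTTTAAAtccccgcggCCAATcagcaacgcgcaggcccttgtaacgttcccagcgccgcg
Top2a: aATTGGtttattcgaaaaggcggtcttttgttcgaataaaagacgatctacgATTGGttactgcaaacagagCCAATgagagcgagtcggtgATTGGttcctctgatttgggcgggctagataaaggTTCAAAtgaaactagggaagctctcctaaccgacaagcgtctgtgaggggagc

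A RefSeq window of 300 bases, from 250 before to 50 after the start, was at hand for 38 of the 46 genes. A CHR was found in 84.2% of these 38 genes against 30.6% of the 27025 genes with a window, and a CCAAT box in 76.3% against 41.1%. Both were present in 71.1% of the members and 13.4% of all genes. The windows of *Bub1* and *Nek2* held a CCAAT box without a CHR, and those of *Mad2l1*, *Nuf2*, *Nusap1* and *Pttg1* held neither. The RefSeq start lay within 50 bases of the annotated gene start for 29 of the 38 genes, and for *Pttg1* it lay 270 bases inside the gene, so that its window held no letter before the annotated start. The same was so for *Kif4*, *Cdca3*, *Cdca8* and *Kif2c* (328, 629, 2394 and 3867 bases inside), whose windows each held a CHR. The shares above describe letters in a window, and neither they nor the part of these elements in the members' levels was tested.

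Per kilobase of exon, the most abundant member in neurospheres with *ACVR1* R206H was *Cdc20*, the activator of the anaphase-promoting complex, at a mean level of 47.5 CPM per kb. *Top2a*, the topoisomerase that untangles sister chromatids, followed at 40.8, and the condensin subunit *Ncapd2* at 35.0 CPM per kb. The lowest levels were those of *Ndc80*, which holds microtubules at the kinetochore (5.23 CPM per kb), and of the central spindle kinesin *Kif23* (5.77 CPM per kb).

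To describe the wild-type receptor group sample by sample, the level of each member was compared among its 3 replicates. The summed level of the 46 genes was 6047 CPM in replicate 1, 1848 in replicate 2 and 803 in replicate 3 of *ACVR1* WT. The same sum was 4235, 3341 and 4135 CPM with *ACVR1* R206H, 3311, 3388 and 3232 with *ACVR1* WT and H3.1K27M, and 2731, 2845 and 2541 with *ACVR1* R206H and H3.1K27M. Thus replicate 1 of *ACVR1* WT lay above the 9 samples of the other groups, and replicates 2 and 3 lay below them. The highest and lowest sum differed 7.53-fold within *ACVR1* WT and 1.05- to 1.27-fold within each of the other groups.

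**Figure D1:**
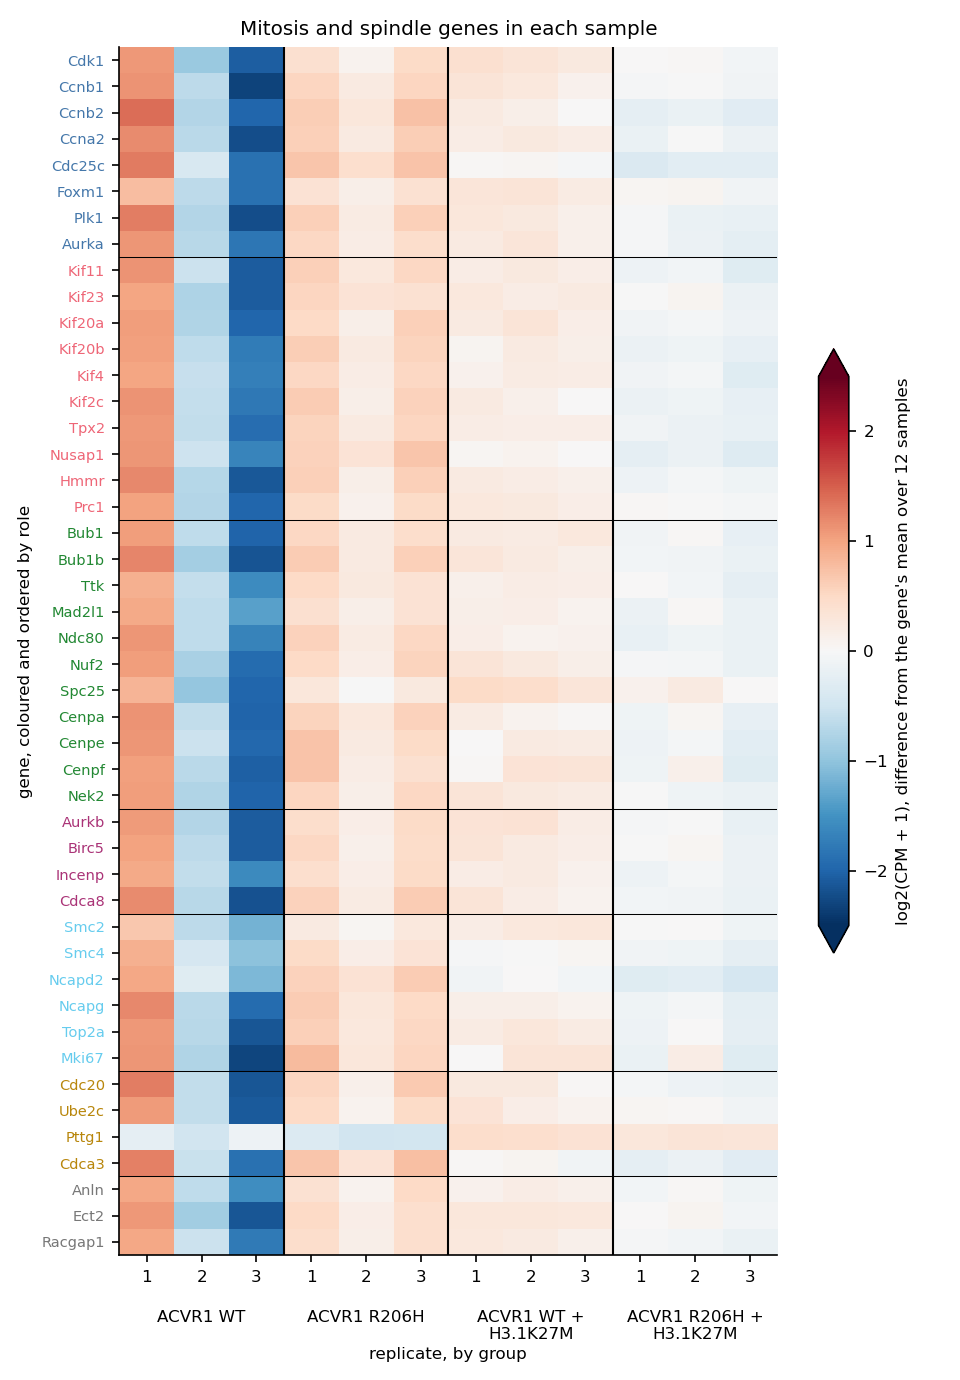
Heat map of the 46 mitosis and spindle genes (rows, by role) in the 12 samples (columns, 3 replicates per group). Colour gives log2(CPM + 1) as the difference from the gene's mean over 12 samples. In *ACVR1* WT, replicate 1 is high and replicate 3 low in all rows but *Pttg1*, and the other 3 groups differ far less within themselves.

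This order held gene by gene. In 45 of the 46 members the level was highest in replicate 1, intermediate in replicate 2 and lowest in replicate 3, an order found in 28.1% of the 15445 genes tested over the 12 samples. Replicate 1 lay above all 9 samples of the other groups in 45 members (20.8% of genes), with *Pttg1* the exception. Replicate 2 lay below all 9 in 45 members (22.6% of genes), with *Ncapd2* the exception, and replicate 3 in 45 (24.4% of genes), again all but *Pttg1*. The level in replicate 1 was at least 8-fold that in replicate 3 for 31 of the 46 members and for 1.08% of all genes. The median log2 ratio of replicate 1 over replicate 3 was 3.18 for the members and 0.00 for all genes. These are values of single samples of a group, and no test across replicates applies.

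**Figure D2:**
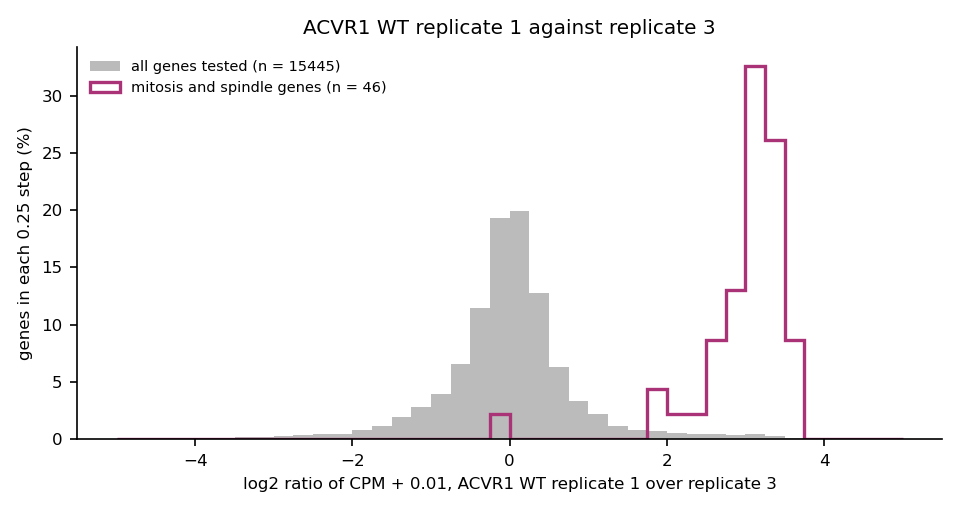
Distribution of the log2 ratio of CPM + 0.01 between replicate 1 and replicate 3 of *ACVR1* WT (x axis) as the percentage of genes in each step (y axis), for 15445 genes tested (grey) and 46 mitosis and spindle genes (line). The members centre on 3.18, with *Pttg1* alone at -0.11.

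Among the genes of entry into mitosis, *Cdk1*, the mitotic kinase (chromosome 10, positions 69335146 to 69352938 of mm10), was at 164, 40.0 and 17.6 CPM in replicates 1, 2 and 3 of *ACVR1* WT. It was at 103, 82.4 and 108 CPM with *ACVR1* R206H, at 102, 96.8 and 91.7 with *ACVR1* WT and H3.1K27M, and at 77.9, 78.9 and 73.8 with both mutations. Both H3.1K27M groups were narrow and did not overlap, and the *ACVR1* WT samples straddled every other group. *Ccnb1*, the cyclin B that activates Cdk1, was at 164, 47.3 and 14.3 CPM in *ACVR1* WT, and *Plk1*, a kinase needed for centrosome maturation and mitotic entry, was at 100.5, 24.1 and 7.97. *Plk1* had the widest fold of all members between replicates 1 and 3, 12.6-fold. *Foxm1*, the transcription factor that raises many of the other members, had the smallest of this role, 6.54-fold, with 120, 43.8 and 18.4 CPM.

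The motors and organizers of the spindle showed the same order, with a fold between replicates 1 and 3 of 6.94 for the chromokinesin *Kif4* to 10.9 for *Hmmr*, a microtubule-binding protein of the spindle. *Kif11*, the kinesin that pushes spindle poles apart, was at 224, 69.9 and 23.5 CPM in *ACVR1* WT and between 83.3 and 155 CPM in the other 9 samples. *Tpx2*, which brings Aurora A to the spindle, was at 246, 74.9 and 30.1 CPM against 101.5 to 171 in the other 9. Each of the 10 genes of this role had all 9 samples of the other groups between replicates 1 and 2 of *ACVR1* WT.

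At the kinetochore, the fold ran from 5.17 for *Mad2l1*, a checkpoint protein, to 11.1 for *Bub1b*, which encodes the checkpoint protein BubR1. *Bub1*, a checkpoint kinase, was at 70.2, 21.4 and 7.62 CPM in *ACVR1* WT, and the kinetochore motor *Cenpe* at 114, 35.9 and 12.8 CPM. Of the chromosomal passenger complex, whose kinase Aurora B corrects faulty attachments, *Aurkb* was at 64.1, 17.9 and 6.35 CPM in the 3 replicates and at 26.7 to 42.6 in the other groups. In cytokinesis, *Anln*, a scaffold of the contractile ring, was at 85.7, 27.6 and 14.1 CPM. All 4 genes followed the order of the larger set.

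Chromosome structure held the 3 smallest folds apart from that of *Pttg1*. The condensin subunits *Smc2*, *Smc4* and *Ncapd2*, which compact chromosomes and also serve outside mitosis, differed 3.70-, 3.83- and 4.35-fold between replicates 1 and 3, whereas *Ncapg*, another condensin subunit, differed 9.84-fold. *Top2a* (chromosome 11, positions 98992943 to 99024189) was at 558, 162 and 59.5 CPM in *ACVR1* WT. *Mki67*, which encodes the proliferation antigen Ki-67 (chromosome 7, positions 135689784 to 135716361), was at 339, 92.7 and 31.3 CPM. Its levels in the other groups were 272, 191 and 228 CPM with *ACVR1* R206H, 158, 196 and 197 with *ACVR1* WT and H3.1K27M, and 140, 180 and 127 with both. *Mki67* was thus more scattered within the H3.1K27M groups than *Cdk1* or *Top2a*, and these groups overlapped.

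*Pttg1*, which encodes securin, the inhibitor of separase that is destroyed at anaphase (chromosome 11, positions 43420250 to 43426251), was the exception. It was at 32.1, 26.7 and 34.7 CPM in *ACVR1* WT and 29.5, 26.99 and 27.2 with *ACVR1* R206H, against 51.7, 50.9 and 48.5 with *ACVR1* WT and H3.1K27M and 45.95, 47.6 and 46.5 with both. The 6 samples with H3.1K27M all lay above the 6 without, and the level in replicate 1 of *ACVR1* WT was 0.926 times that in replicate 3. *Cdc20*, whose complex marks securin for destruction, was at 157, 41.7 and 13.8 CPM in the same 3 samples.

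Apart from *Pttg1*, the proportions among the members moved less than their sum. Expressed as a share of the summed level in each sample, a member varied over the 12 samples with a median coefficient of variation of 8.99%. The highest and lowest share differed 1.67-fold for *Plk1*, 1.65-fold for *Mki67* and 2.07-fold for *Smc4*, the most after *Pttg1* (8.13-fold). The coefficient of variation was over 20% for *Pttg1* (65.7%, from 0.531% of the sum in replicate 1 to 4.32% in replicate 3 of *ACVR1* WT), *Smc4*, *Ncapd2* and *Smc2* (24.5%, 23.7% and 20.3%). The genes share libraries and scaling, shares of a sum are tied to each other, and no other genes were set beside these shares.

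Other lists moved beside the members in *ACVR1* WT. Of 79 further mitotic genes, 76 had the order of replicate 1 over 2 over 3, as did 38 of 41 S phase genes, whose sum was 3136, 1124 and 834 CPM, and 20 of 29 regulators of mitotic transcription. All 6 astrocyte markers had the opposite order, which 28.2% of all genes had, and their sum was 2631, 7657 and 11936 CPM. *Gfap*, an intermediate filament of astrocytes, was at 346, 1419 and 2674 CPM, *Aqp4*, a water channel of astrocytes, at 788, 3553 and 5840. Of the 6 neuron markers 3 had this opposite order and 0 the order of the members. The 6 progenitor markers were mixed, with 1, *Nes* (407, 132 and 73.0 CPM), in the order of the members and 2, *Msi1* (96.9, 129 and 140) and *Pax6* (51.7, 76.1 and 83.9), in the opposite order. Of the 5 oligodendrocyte markers 3 had the opposite order (sums of 117, 250 and 351 CPM), and of the 5 oligodendrocyte precursor markers 3 had the order of the members and 1 the opposite (3183, 2768 and 2044 CPM). The 5 microglia markers summed to 2.75, 7.05 and 9.82 CPM. The part of these cell type differences in the members' levels was not tested. In bulk cultures, fewer dividing cells and less of these transcripts per dividing cell cannot be told apart.

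**Figure D3:**
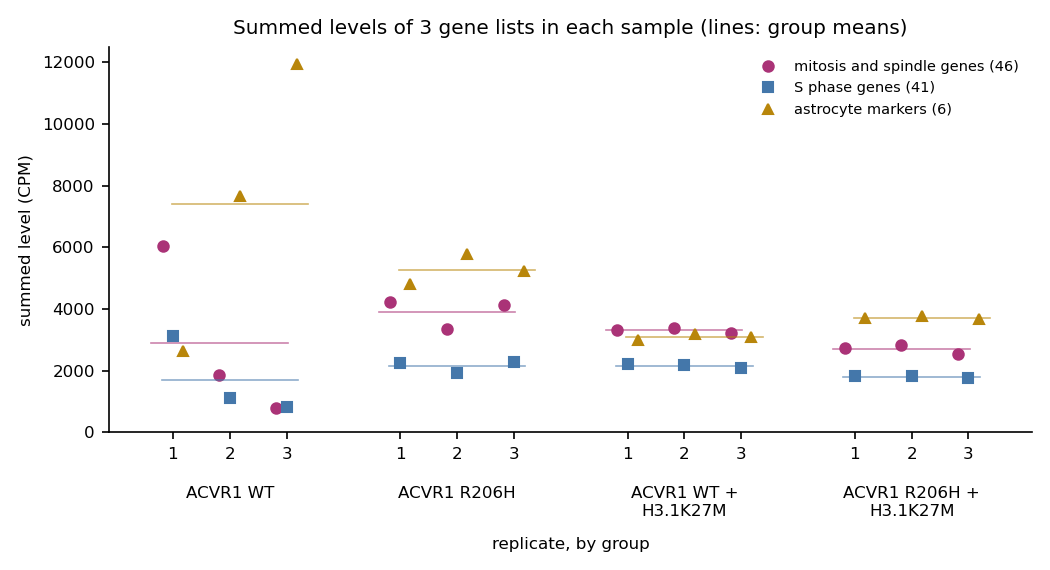
Summed level in CPM (y axis, from 0) of the 46 mitosis and spindle genes, 41 S phase genes and 6 astrocyte markers in each replicate (x axis) of the 4 groups, with lines at the group means. In *ACVR1* WT the mitotic sum is 6047, 1848 and 803 CPM where the astrocyte sum is 2631, 7657 and 11936, and the other groups are narrow.

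The first comparison asked how *ACVR1* R206H changed the members relative to *ACVR1* WT in the absence of H3.1K27M. None of the 46 passed an adjusted p of 0.05 (edgeR's quasi-likelihood test, adjusted by Benjamini-Hochberg), as was so for 0% of the 15066 genes tested. The log2 fold changes ran from -0.15 for *Pttg1* to 0.58 for *Mki67*, with a median of 0.43 against -0.01 over all genes, and 45 of 46 were positive. At an unadjusted p under 0.05 the count was 0 members and 534 genes, and DESeq2 called 0 members and 26 genes. The groups overlapped in all 46 members, since the 3 *ACVR1* R206H samples lay between replicates 1 and 2 of *ACVR1* WT in each (groups did not overlap in 4.37% of genes with R206H higher and 5.24% with R206H lower).

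The representatives chosen for each role had log2 fold changes from 0.29 for *Smc4* to 0.58 for *Mki67*, with standard errors between 0.47 and 0.81. *Top2a* was at a mean of 260 CPM in *ACVR1* WT and 367 in *ACVR1* R206H, a log2 fold change of 0.51 with a standard error of 0.73. *Cdk1* was at 73.9 ± 78.9 and 97.9 ± 13.7 CPM (mean ± SD, n = 3), with a log2 fold change of 0.41 ± 0.74 (SE). The spread within *ACVR1* WT was thus larger than the difference for each of these genes.

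This result turned on a single library. Without replicate 1 of *ACVR1* WT, 45 of the 46 members were higher with *ACVR1* R206H (edgeR, adjusted p under 0.05, 12.1% of genes in that direction), with a median log2 fold change of 1.65. Without replicate 2 the median was 0.19 with 0 members called, and without replicate 3 it was -0.03 with 0 called (0% of genes in either omission). With sample quality weights, in which limma gave replicate 1 the lowest weight of the 6 samples (0.123), 45 members were higher (13.5% of genes). *Pttg1* was the member not called in either of these fits. Reads on *Acvr1* averaged 50.9 CPM with *ACVR1* WT and 93.8 with *ACVR1* R206H, and the part of this difference was not tested. Astrocyte markers went the other way without replicate 1, with 5 of 6 lower with *ACVR1* R206H (11% of genes). Against replicates 2 and 3, R206H sums were also lower for neuron (124 and 164 CPM against 39.2 to 44.5), oligodendrocyte (250 and 351 against 143 to 185) and microglia markers (7.05 and 9.82 against 3.20 to 5.28). They were higher for neural progenitor (4823 and 3815 against 5179 to 5336) and mural and fibroblast markers (11.2 and 7.58 against 11.5 to 14.0). The ependymal, endothelial and oligodendrocyte precursor sums overlapped, and the part of these lists was not tested.

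**Figure D4:**
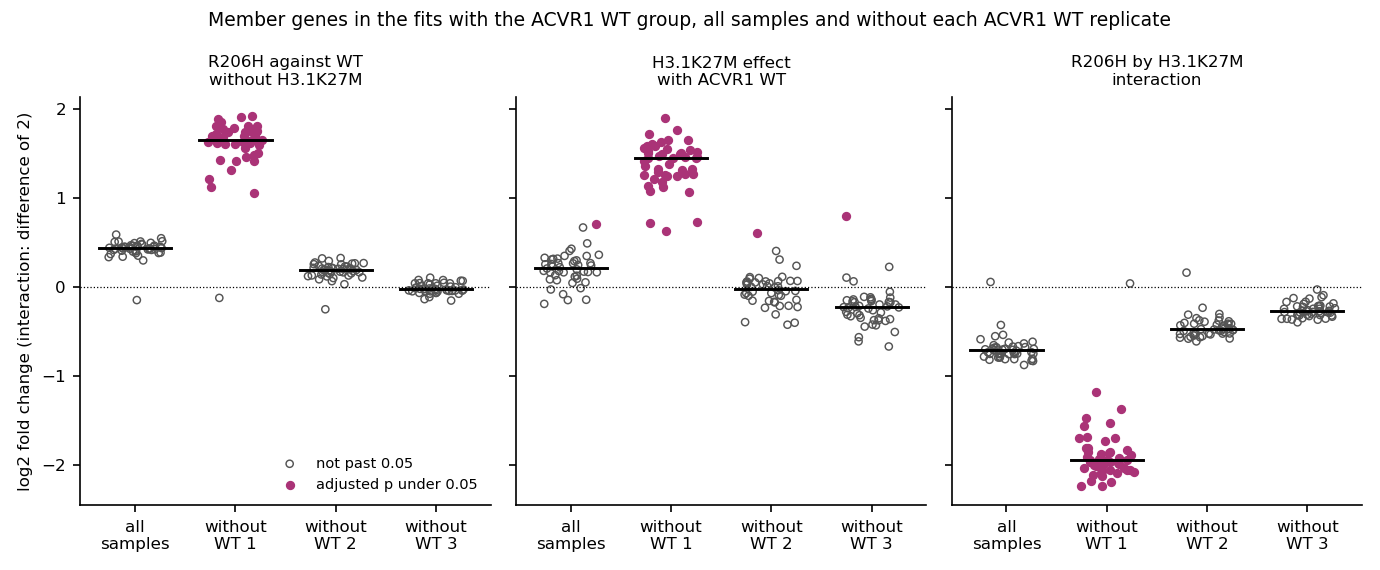
Log2 fold changes of the 46 members (points, filled where the edgeR adjusted p is under 0.05, line at the median) in the 3 fits that use *ACVR1* WT, with all samples and without each of its replicates. In the comparison without H3.1K27M the median is 0.43 with all samples, 1.65 without replicate 1, 0.19 without replicate 2 and -0.03 without replicate 3.

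With H3.1K27M in both groups, the members were lower with *ACVR1* R206H than with *ACVR1* WT. Of the 46, 42 fell and 0 rose (edgeR, adjusted p under 0.05), against 8.95% of 15672 genes that fell and 11.4% that rose. The change was small and even: the median log2 fold change was -0.29, against 0.00 over all genes, and the 46 values lay between -0.38 for *Aurkb* and -0.10 for *Pttg1*. In 43 members all 3 *ACVR1* R206H samples lay below all 3 *ACVR1* WT samples (18.4% of genes). These 6 samples held replicates close to each other, with a biological coefficient of variation of 0.048. Reads on *Acvr1*, from the mouse gene and the vector together, were at 162 to 364 CPM with *ACVR1* WT and 561 to 1057 with *ACVR1* R206H. The allele and the level of the receptor cannot be told apart in this comparison.

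All 8 genes of entry into mitosis fell, by 0.26 to 0.37 on the log2 scale. *Cdk1* fell from 96.9 ± 5.25 to 76.9 ± 2.70 CPM (mean ± SD, n = 3), by 0.33 ± 0.05 on the log2 scale (SE, edgeR adjusted p = 0.00045). *Ccna2*, the cyclin A of S phase and G2, fell by 0.31 (edgeR adjusted p = 0.000639) and *Ccnb1* by 0.27 (0.0039). The kinases *Plk1* and *Aurka*, the latter needed to build spindle poles, fell by 0.34 and 0.37, and *Foxm1* by 0.26 (edgeR adjusted p = 0.0041).

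The 10 spindle genes fell too. *Tpx2* had the smallest adjusted p of all members, at 130, 129 and 130 CPM with *ACVR1* WT and 109, 104 and 101.5 with *ACVR1* R206H, which is a fall by 0.30 ± 0.04 on the log2 scale (SE, edgeR adjusted p = 0.000186). *Kif11* fell by 0.36 (0.000561) and *Kif23* by 0.25 (0.0129), both from edgeR.

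Of the kinetochore genes 10 of 11 fell, and *Cenpa*, the histone H3 variant of centromeres, did not pass (-0.20, edgeR adjusted p = 0.0572). *Bub1b* was at 75.5, 71.0 and 67.5 CPM against 57.6, 56.9 and 54.3, and fell by 0.34 (edgeR adjusted p = 0.000543). *Bub1*, *Cenpe* and *Ndc80* fell by 0.32, 0.30 and 0.28. The 4 genes of the chromosomal passenger complex fell, *Aurkb* the most of all members with a log2 fold change of -0.38 (edgeR adjusted p = 0.00144).

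In chromosome structure 5 of 6 genes fell. *Top2a* fell from 310 ± 11.6 to 245 ± 19.5 CPM (mean ± SD, n = 3), by 0.33 ± 0.05 on the log2 scale (SE, edgeR adjusted p = 0.000825), and *Smc4* by 0.14, close to the threshold (0.0488). *Mki67*, with a log2 fold change of -0.30 and a larger error of 0.11, did not pass (edgeR adjusted p = 0.0753). Among genes of anaphase and exit, *Cdc20* fell by 0.29 (edgeR adjusted p = 0.00574), while *Ube2c*, the ubiquitin-conjugating enzyme of the anaphase-promoting complex (-0.20, 0.0519), and *Pttg1* (-0.10, 0.157) did not pass. The 3 cytokinesis genes fell, *Anln* by 0.17 (edgeR adjusted p = 0.0382).

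**Figure D5:**
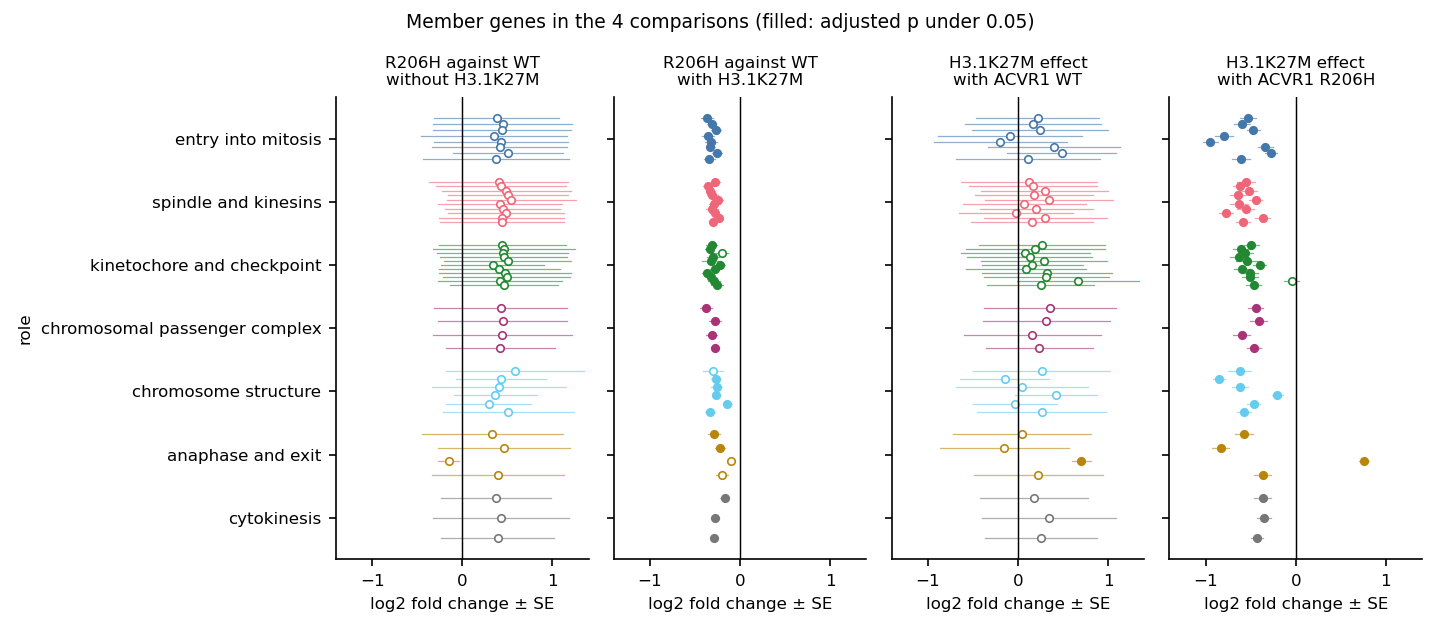
Log2 fold changes with standard errors (x axis) of the 46 members by role (y axis, colour) in the 4 comparisons, filled where the edgeR adjusted p is under 0.05. With H3.1K27M, 42 members lie below 0 and are called, the 2 comparisons with the *ACVR1* WT group have wide errors, and the effect of H3.1K27M with *ACVR1* R206H is called for 44 lower members and for *Pttg1* above 0.

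The call depended on which samples set the error. In a fit of all 12 samples, whose estimate of the spread includes *ACVR1* WT, 0 of the 46 members passed with a median of -0.30 (0.619% of genes fell), while in a fit of the 9 samples without *ACVR1* WT 36 fell (8.42%). Without replicates 1, 2 and 3 of *ACVR1* R206H with H3.1K27M in turn, 38, 43 and 33 members fell (6.38%, 8.19% and 4.98% of genes). Without replicates 1, 2 and 3 of *ACVR1* WT with H3.1K27M, 43, 35 and 41 fell (7.67%, 5.42% and 8.95% of genes). *Cenpe* and *Kif23* did not pass without replicate 3 of the R206H group (edgeR adjusted p = 0.053 and 0.0703), nor *Cenpe* without replicate 2 of the WT group (0.0528), and *Cdc20* did not pass in the fit of 9 samples (0.0601). The calls of *Smc4* and *Anln* were the least stable. *Smc4* did not pass in 5 of the 6 omissions (edgeR adjusted p = 0.0551 to 0.219), with DESeq2 (0.0762), with the replicate block (0.0579) or in the fit of 9 samples (0.147). *Anln* did not pass in 4 of the 6 omissions (0.0584 to 0.162), with DESeq2 (0.0765), with thinned counts (0.0689) or in the fit of 9 samples (0.17), edgeR being the tool where none is named. *Mki67* passed without replicate 2 of *ACVR1* R206H with H3.1K27M (edgeR adjusted p = 0.00203) and without replicate 1 of *ACVR1* WT with H3.1K27M (0.0131), as well as with the replicate block (0.0182), with quality weights in limma (0.0105) and without a filter. *Cenpa* and *Ube2c*, both close to the threshold, passed in 7 and 6 alternatives, among them the replicate block (edgeR adjusted p = 0.0318 and 0.019), the fit without replicate 3 of *ACVR1* WT with H3.1K27M (0.0398 and 0.0199) and the quality weights in limma (0.0243 and 0.0427). Beside the members, 2 of the 6 astrocyte markers rose with *ACVR1* R206H and 1 fell, their sum being 2998 to 3179 CPM with *ACVR1* WT and 3692 to 3763 with *ACVR1* R206H. The sums of other cell type markers were also apart. They were higher with *ACVR1* R206H for neural progenitor (4684 to 5117 CPM against 5394 to 5723, 4 of 6 markers rising and 1 falling), ependymal (67.6 to 71.0 against 75.2 to 82.4, 1 of 3 rising), neuron (38.2 to 42.2 against 50.2 to 52.1, 3 of 6 rising), mural and fibroblast (11.5 to 13.6 against 20.6 to 26.4, 2 of 3 tested rising), endothelial (1.33 to 2.26 against 2.72 to 4.86) and microglia markers (1.27 to 1.62 against 1.98 to 2.95). The oligodendrocyte sum was lower (200 to 219 CPM against 152 to 175, 3 of 5 falling), and the oligodendrocyte precursor sums overlapped, with 4 of 5 markers falling. The part of these lists in the members' change was not tested.

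Related genes outside the set were also more often lower than higher. Of the 79 further mitotic genes 41 fell and 3 rose, of the 41 S phase genes 29 fell and 0 rose, and of the 29 regulators of mitotic transcription 6 fell and 1 rose, beside the 8.95% of all genes that fell and the 11.4% that rose. *Dlgap5*, a spindle protein, fell by 0.37 (edgeR adjusted p = 0.000431). The replication helicase subunit *Mcm6* fell by 0.35 (4.96e-05) and the sliding clamp *Pcna* by 0.29 (0.000462), both in edgeR. Of the regulators, *E2f8*, a repressor of the E2F family, fell by 0.45 (edgeR adjusted p = 0.00136), and the retinoblastoma gene *Rb1*, a repressor of E2F, rose by 0.39 (0.000176). *Cdkn1c*, which encodes the cyclin-dependent kinase inhibitor p57, fell by 0.95 (edgeR adjusted p = 0.00522). As with the members, all 6 of these calls were lost in the fit of all 12 samples (edgeR adjusted p = 0.814 for *Dlgap5*, 0.757 for *Mcm6*, 0.765 for *Pcna*, 0.743 for *E2f8*, 0.172 for *Rb1* and 0.175 for *Cdkn1c*).

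The effect of H3.1K27M was compared next within *ACVR1* R206H, where replicates were also close (biological coefficient of variation 0.0526). Of the 46 members, 44 fell with H3.1K27M and 1, *Pttg1*, rose (edgeR, adjusted p under 0.05), against 27.4% of 15482 genes that fell and 29.1% that rose. The median log2 fold change was -0.53 against 0.00 over all genes. All 3 samples with H3.1K27M lay below all 3 without it in 44 members (32% of genes). The 3 samples with both mutations also served in the comparison above, so that the 2 comparisons share them. Reads on *Acvr1*, from the mouse gene and the vector together, averaged 93.8 CPM without H3.1K27M and 872 with it, and no group carried a wild-type H3.1. H3.1K27M, a higher level of the receptor and a further virus cannot be told apart here.

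The members spanned a wider range here than between the receptors. Log2 fold changes ran from -0.95 for *Cdc25c*, the phosphatase that activates Cdk1, to 0.75 for *Pttg1*. *Cdc25c* was at 31.8, 26.1 and 32.0 CPM without H3.1K27M and 14.6, 15.8 and 15.7 with it (log2 fold change -0.95 ± 0.09 SE, edgeR adjusted p = 2.05e-06). *Ncapd2* was at 226, 194 and 237 CPM against 123, 125 and 113 (-0.85 ± 0.07, edgeR adjusted p = 6.88e-07), the smallest adjusted p among the members that fell. *Nusap1*, a microtubule-bundling protein, fell by 0.78, *Cdca3*, a trigger of mitotic entry, by 0.83 and *Ccnb2*, a cyclin B, by 0.79.

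The representatives of entry into mitosis fell less: *Cdk1* by 0.34 (edgeR adjusted p = 0.00402), *Foxm1* by 0.28 (0.00402) and *Ccnb1* by 0.47 (0.000187), while *Plk1* fell by 0.61 and *Aurka* by 0.53. *Kif11* fell by 0.62 (edgeR adjusted p = 3.77e-05), *Tpx2* by 0.58 and *Kif23* by 0.44. *Bub1* and *Ndc80* fell by 0.50 and 0.60, *Cenpe* by 0.63, *Aurkb* by 0.44 and *Anln* by 0.37. *Mki67* fell by 0.62 with an error of 0.13 (edgeR adjusted p = 0.00152), *Top2a* by 0.57 (7.01e-05), *Smc4* by 0.47 and *Cdc20* by 0.57. Each of these had separate groups.

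*Spc25*, a subunit of the Ndc80 complex, was the member that did not pass, at 44.6, 36.2 and 43.1 CPM without H3.1K27M and 39.6, 42.8 and 36.7 with it (log2 fold change -0.05 ± 0.08 SE, edgeR adjusted p = 0.657). Its partner *Ndc80* was at 37.5, 28.6 and 35.8 against 21.7, 23.1 and 22.1 CPM. *Pttg1* rose from 27.9 ± 1.36 to 46.7 ± 0.815 CPM (mean ± SD, n = 3), by 0.75 ± 0.06 on the log2 scale (SE, edgeR adjusted p = 3.96e-07).

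These calls also rested on the error of these 6 samples: all 12 samples in a fit left 1 member called, *Pttg1*, as higher (21.6% of genes rose and 16.7% fell), whereas the fit of the 9 samples without *ACVR1* WT gave 44 fallen and 1 risen (27.6% of genes fell and 29.6% rose). The summed level of the astrocyte markers was 4807 to 5779 CPM without H3.1K27M and 3692 to 3763 with it, 3 of 6 falling and 1 rising. The microglia sum was also lower (3.20 to 5.28 CPM against 1.98 to 2.95). Higher sums with H3.1K27M were those of the oligodendrocyte precursor (2630 to 2866 CPM against 3313 to 3487, 4 of 5 markers rising and 1 falling), neural progenitor (5179 to 5336 against 5394 to 5723, 1 of 6 rising and 2 falling), ependymal (41.6 to 45.1 against 75.2 to 82.4, 2 of 3 rising), neuron (39.2 to 44.5 against 50.2 to 52.1, 4 of 6 rising and 1 falling), mural and fibroblast (11.5 to 14.0 against 20.6 to 26.4, both tested markers rising) and endothelial markers (1.29 to 1.6003 against 2.72 to 4.86). The part of these lists was not tested.

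Among the further lists, 62 of 79 mitotic genes fell and 4 rose, 25 of 41 S phase genes fell and 3 rose, and 12 of 29 regulators fell and 4 rose, beside the 27.4% of all genes that fell and the 29.1% that rose. *Psrc1*, a spindle protein, rose by 0.72 (edgeR adjusted p = 2.88e-07), and the mitotic kinesin *Kif15* fell by 0.68 (1.98e-05). *Cdkn1a*, the p53 target that encodes the cyclin-dependent kinase inhibitor p21, rose by 1.28 (edgeR adjusted p = 1.21e-08), and *Cdkn1b*, which encodes the inhibitor p27, fell by 0.53 (2.20e-06). *Mcm6* fell by 0.41 (edgeR adjusted p = 2.32e-05). In the fit of all 12 samples *Cdkn1a* and *Cdkn1b* kept their calls, whereas *Psrc1*, *Kif15* and *Mcm6* lost theirs (edgeR adjusted p = 0.132, 0.341 and 0.465).

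Within *ACVR1* WT, the effect of H3.1K27M could be seen for 1 member. *Pttg1* rose from 31.2 ± 4.11 to 50.3 ± 1.65 CPM (mean ± SD, n = 3), by 0.70 ± 0.11 on the log2 scale (SE, edgeR adjusted p = 0.00815), with 12.6% of 15385 genes rising and 10.4% falling. None of the other 45 members passed, and their groups overlapped, since the 3 H3.1K27M samples lay between the *ACVR1* WT replicates (groups were apart in 22% of genes with H3.1K27M higher and in 23.2% with it lower). The lowest log2 fold change was -0.19 for *Cdc25c*, the median was 0.21 against -0.02 over all genes, and 40 of 46 were positive. *Foxm1* had a log2 fold change of 0.49 ± 0.60, *Cdk1* of 0.40 ± 0.73, *Top2a* of 0.26 ± 0.71 and *Mki67* of 0.26 ± 0.76 (SE). Reads on *Acvr1* averaged 50.9 CPM without H3.1K27M and 232 with it, and the part of this difference was not tested.

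Here too replicate 1 of *ACVR1* WT decided. Without it all 46 members were higher with H3.1K27M (edgeR, adjusted p under 0.05, 26.9% of genes in that direction), with a median log2 fold change of 1.44. Without replicate 2 the median was -0.02 and without replicate 3 it was -0.23, with *Pttg1* the 1 member called in each (6.16% and 10.7% of genes rose). Sample quality weights gave 44 members higher (30.3% of genes). *Pttg1* was the member called as higher with all samples and under each omission. Of the regulators, *Cdkn1a* rose by 1.66 and *Cdkn1b* fell by 0.63 (edgeR adjusted p = 0.0248 and 0.00213). The call of *Cdkn1a* was lost in 5 of the 6 omissions, all but that of *ACVR1* WT replicate 1 (edgeR adjusted p = 0.0522 to 0.0872). The fit with all 6 samples had 0 of 79 further mitotic genes and 0 of 41 S phase genes called. Without replicate 1, 69 and 40 of these rose and 1 and 0 fell. Of the 6 astrocyte markers 1 rose and 4 fell in that fit (25.6% of genes fell). Against replicates 2 and 3, sums with H3.1K27M were lower for neuron (124 and 164 CPM against 38.2 to 42.2), oligodendrocyte (250 and 351 against 200 to 219) and microglia markers (7.05 and 9.82 against 1.27 to 1.62). They were higher for oligodendrocyte precursor (2768 and 2044 against 3383 to 4015), ependymal (34.8 and 56.5 against 67.6 to 71.0), mural and fibroblast (11.2 and 7.58 against 11.5 to 13.6) and endothelial markers. Neural progenitor sums overlapped, and the part of these lists was not tested.

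Whether *ACVR1* R206H acted differently with and without H3.1K27M was tested as an interaction over all 12 samples. No member passed, against 11 of 15445 genes (0.0712%), and 0 members and 1183 genes had an unadjusted p under 0.05. By DESeq2 0 members and 96 genes were called. The interaction log2 values ran from -0.88 ± 0.84 (SE) for *Mki67* to 0.05 ± 0.12 for *Pttg1*, with a median of -0.72 against 0.02 over all genes, and *Top2a* was at -0.84 ± 0.78. Without replicate 1 of *ACVR1* WT, 45 members were negative and called (13% of genes, edgeR, median -1.95). Without replicate 2 the median was -0.48 and without replicate 3 it was -0.28, with 0 members called in both (0% and 0.00648% of genes lower). Quality weights gave 45 lower members (15.1% of genes). The different signs of the members' changes with *ACVR1* R206H in the 2 backgrounds were therefore not shown to differ with all 12 samples at equal weight. The 45 calls came where replicate 1 of *ACVR1* WT was left out or had the lowest weight of the 12 (0.0741, limma).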

How the data were processed

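RNA was sequenced from 12 samples, 3 in each of 4 groups taken from the labels. The authors aligned reads to mm10 with STAR (2.6.0b-1 in the submitters' processing notes) on Galaxy and deposited raw counts per Ensembl gene from HTSeq. That counting ignored strand and left out reads that match several places, so that antisense partners cannot be told apart and near-identical gene copies are uncertain.

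Levels are CPM with TMM factors over the 12 samples. Comparisons used edgeR 4.0.16 in R 4.3.3 (quasi-likelihood F test, TMM, 6 samples per comparison and 12 for the interaction), on genes with a mean normalised count of at least 10, with Benjamini-Hochberg adjustment over all genes tested and a threshold of 0.05. An exact permutation test of 3 against 3 samples cannot go below a two-sided p of 0.1. The fits were also run on simulated counts that gave each gene the same spread in every group. The groups here differ in spread, so that these runs do not bear on the calls above. DESeq2 1.42.0, limma 3.58.1, other normalizations and filters, a replicate block, thinned counts and omitted samples served as alternatives. Gene positions are from GENCODE for mm10, and promoters from RefSeq.

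The members and lists were chosen with earlier results of these data known. Named in each comparison were 17 fixed representatives, all called members where 8 or fewer in a direction and otherwise the 5 of smallest adjusted p, the extremes, and at most 5 called genes of each other list. *Cenpa*, *Ube2c* and *Spc25*, and members named for their ratio between *ACVR1* WT replicates or their motifs, were chosen after their values were seen.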

Additional observations from a re-analysis of the deposited data

How the results depend on the processing

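The calls rested mainly on *ACVR1* WT replicate 1 and on which samples set the error. For R206H against WT without H3.1K27M (0 genes and 0 members called), 11 genes were called in a fit of all 12 samples, 26 by DESeq2, 3683 with sample quality weights and 0 to 3485 with 1 sample left out. Members called were 45 with quality weights and 0 to 45 with 1 sample left out, with a median member log2 fold change of -0.0277 to 1.65, *Cdk1* at -0.0527 to 1.78 and *Plk1* at -0.12 to 1.85, the highest in each case without WT replicate 1. *Pttg1* was at 0.0217 with quality weights. With H3.1K27M (3185 genes, 42 members), a fit of all 12 samples called 447 genes and 0 members, and omissions called 1915 to 2966 genes.

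For H3.1K27M with *ACVR1* WT (3533 genes, 1 member), 6335 genes were called with all 12 samples, 2023 with the replicate block, 9234 with quality weights and 1037 to 8115 under omission, and members called were 44 with quality weights and 1 to 46 under omission. The median member was at -0.23 to 1.44 under omission, *Cdk1* at -0.0585 to 1.76, *Mki67* at -0.22 to 1.58 and *Top2a* at -0.20 to 1.49, and *Cdc25c* at 0.38 with the block, 0.65 with quality weights and -0.67 to 1.07 under omission. With *ACVR1* R206H (8745 genes, 45 members), 1 member was called with all 12 samples, and *Spc25* was at -0.13 to 0.0108 under omission. For the interaction (11 genes, 0 members), genes called were 2 with the block, 96 by DESeq2, 18 without a filter, 4550 with quality weights and 3 to 4112 under omission, and members called 45 with quality weights and 0 to 45 under omission. *Pttg1* was at -0.15 with quality weights and -0.0327 to 0.16 under omission. Over all alternatives, fold changes of single genes kept their direction and side of the threshold in 974 cases, lost the call in 73, gained it in 38, and reversed in 13. The causes were not tested. The fit of 9 samples was chosen after seeing the data.

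Samples with the same replicate number did not deviate together in every pair (correlations of -0.158 to 0.477 without H3.1K27M, -0.0649 to 0.117 with it, 0.0124 to 0.0489 for H3.1K27M with WT and -0.0328 to 0.0805 with R206H). Such deviations from the mean of a few samples cannot decide whether samples were paired. The paper used paired t tests for its in vitro neurosphere assays, while the labels here name no pairs and the main fits were unpaired. With the replicate block, calls were 0 genes without H3.1K27M, 3335 genes and 44 members with it, and 8606 genes and 45 members for H3.1K27M with R206H. Single-sample counts of *Cdc25c*, the member with the lowest total, went down to 93.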
